A study of Mus musculus with 5 samples.

Results

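The 9 genes described here are induced by interferon gamma and were followed across 4 kinds of cardiac interstitial cell: the immunity-related GTPases Iigp1, Igtp, Irgm1, Irgm2 and Tgtp2, the chemokines Cxcl9 and Cxcl10, the checkpoint ligand Cd274 and the transcription factor Irf1. They are 9 of the 17902 gene symbols listed in at least 1 of the 5 deposited tables, and 8 of them are listed in every table. Cxcl10 is not listed for cKit+/DDR2- replicate 1 and was set to 0 there. The members were chosen by name, with part of their pattern already known: earlier results had shown Cxcl9, Tgtp2 and Iigp1 high in capillary cells of the cKit+/DDR2+/CD45- sort compared with cKit-/DDR2+, so that contrast is given below as a description.

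The study sorted interstitial cells of the adult mouse heart, after collagenase digestion and removal of cardiomyocytes, by antibodies to the receptor tyrosine kinase cKit and the collagen receptor DDR2. Double-positive cells were further parted by the leukocyte antigen CD45. Single-cell 3′ RNA libraries were made from cKit-/DDR2+ cells (1 library), cKit+/DDR2- cells (replicates 1 and 2), cKit+/DDR2+/CD45- cells (1) and cKit+/DDR2+/CD45+ cells (1). The labels give no treatment, strain, age in weeks or number of animals for any of the 4 sorts, and do not say whether the 2 cKit+/DDR2- libraries came from separate animals. Because 3 of the 4 sorts have a single library, no significance test between sorts was run, and none was run between cell types.

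As background, interferon gamma binds a receptor of the Ifngr1 and Ifngr2 chains, and its signal, passed on by the Jak1 and Jak2 kinases, acts on target promoters through GAS elements. Irf1 is one of the first targets, and its protein binds ISRE elements in a later set of genes. Iigp1, Igtp and Tgtp2, with Irgm1 and Irgm2, form a GTPase system that attacks the vacuoles of intracellular pathogens in mouse cells; Irgm1, Irgm2 and Igtp belong to the regulatory GMS class, which holds the GKS effectors Iigp1 and Tgtp2 inactive on the cell's own membranes. Cxcl9 and Cxcl10 attract T and natural killer cells through the receptor Cxcr3, and Cd274 encodes PD-L1, which restrains T cells through Pdcd1.

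The promoters are shown first because 6 of the 8 members with an entry in the RefSeq promoter table hold a match to one of these elements close to their start. The 250 bases before each start were searched on both strands for GAS, spelled TTCNNNGAA, and for ISRE, spelled GAAANNGAAA. Below, capitals mark the matches; each stretch reads 5′ to 3′ in the direction of the gene, in build GRCm38.p6.
Igtp, chr11:58199491-58199551, plus strand: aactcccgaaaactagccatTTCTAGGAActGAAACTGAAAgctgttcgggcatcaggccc
Irgm2, chr11:58214882-58214942, plus strand: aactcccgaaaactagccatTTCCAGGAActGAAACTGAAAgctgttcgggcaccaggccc
Tgtp2, chr11:49064253-49064313, minus strand: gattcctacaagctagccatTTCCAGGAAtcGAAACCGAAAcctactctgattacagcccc
Irgm1, chr11:48871421-48871470, minus strand: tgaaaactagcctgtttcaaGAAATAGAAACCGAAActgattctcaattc
Cxcl10, chr5:92349073-92349122, minus strand: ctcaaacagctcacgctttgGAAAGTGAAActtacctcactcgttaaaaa
Irf1, chr11:53769904-53769952, plus strand: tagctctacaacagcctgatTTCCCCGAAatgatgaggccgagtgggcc

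In Igtp, Irgm2 and Tgtp2 the GAS match came first and the ISRE match followed it, without overlap. Irgm1 held 2 ISRE matches that overlap each other and no GAS match, Cxcl10 an ISRE match 213 to 204 bases before its start, and Irf1 a GAS match 90 to 82 bases before its start. Cxcl9 and Cd274 held neither spelling in this window, and Iigp1 had no entry. Of all 32851 promoters in the table, 7.02% held the GAS spelling, 2.98% the ISRE spelling and 0.332% both. The Igtp and Irgm2 promoters, from genes next to each other at chr11:58199556-58207592 and chr11:58214977-58222783, were 90.2% identical over 215 aligned bases. A match is a description of letters, not of a bound factor.

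Cell types were set by gates of at least 2 UMIs (unique molecules) of 1 gene: Gpihbp1 for capillary endothelium, Npr3 for endocardium, Pdgfra for fibroblasts and C1qa for macrophages. Cells that passed more than 1 gate were left out. The libraries held 436 to 3898 cells and 4047326 to 44847778 UMIs, with a median of 7529 to 10972 UMIs per cell. Groups of at least 50 cells were compared: capillary cells in cKit-/DDR2+ (1063), cKit+/DDR2- replicate 1 (179), replicate 2 (422) and cKit+/DDR2+/CD45- (611); endocardial cells in replicate 1 (154), replicate 2 (1278) and cKit+/DDR2+/CD45- (474); fibroblasts in cKit-/DDR2+ (769) and replicate 2 (126); macrophages in replicate 2 (544) and cKit+/DDR2+/CD45+ (3482). Levels are UMIs summed over the gated cells of a library, as counts per 1000000 UMIs (CPM), with exact 95% intervals that cover counting error only.

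Several features of the libraries bear on what follows. The Gpihbp1 gate also took in lymphatic endothelial cells: 58 of 179 cells in cKit+/DDR2- replicate 1, 168 of 422 in replicate 2, 60 of 611 in cKit+/DDR2+/CD45- and 2 of 1063 in cKit-/DDR2+ had a UMI of Mmrn1 or Prox1. The 5 lymphatic check markers summed to 13151, 13745, 3387 and 49.4 CPM in these gates. Replicate 1 and cKit+/DDR2+/CD45+ shared 190 cell barcodes, 43.6% of the cells of replicate 1, where the other 9 pairs of libraries shared 1 to 3. These barcodes had a median of 12133.5 UMIs in replicate 1 and 622.5 in cKit+/DDR2+/CD45+. Replicate 2 and cKit+/DDR2+/CD45- held 496 and 757 CPM of Xist, the RNA of the inactive X chromosome, and no UMI of the Y-linked Ddx3y. The other 3 libraries held 58.8 to 98.6 CPM of Ddx3y and at most 0.0669 CPM of Xist. The same 2 libraries had 90876 and 105710 CPM of Gm42418, against 9796 to 13922 CPM in the other 3.

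In endothelial cells the 5 GTPases were high in cKit+/DDR2+/CD45-, next in cKit+/DDR2- replicate 2, and low in cKit+/DDR2- replicate 1 and cKit-/DDR2+. The higher pair is the pair with Xist, so the sort, the library and this split cannot be told apart. Iigp1, a GKS effector, was measured in capillary cells at 75.5 CPM (interval 68.6 to 82.9) in cKit-/DDR2+, 60.1 (47.7 to 74.7) in replicate 1, 232 (215 to 250) in replicate 2 and 450 (431 to 470) in cKit+/DDR2+/CD45-. In endocardial cells it stood at 48.6 CPM (38.8 to 60.2) in replicate 1, 250 (241 to 259) in replicate 2 and 405 (388 to 422) in cKit+/DDR2+/CD45-. The 2 replicates of 1 sort thus lay further apart than replicate 2 and cKit+/DDR2+/CD45-: by 2.34 on the log2 scale of CPM plus 1 in endocardial cells, against 0.69. Fibroblasts held 6.24 CPM of Iigp1 in cKit-/DDR2+ and 38.9 in replicate 2, where 1 cell held 26 of 57 UMIs and the level without it was 21.4. Macrophages held 6.20 CPM in replicate 2 and 4.41 in cKit+/DDR2+/CD45+. Within replicate 2, where all 4 kinds of cell were sequenced together, 33.6% of capillary, 42.5% of endocardial, 12.7% of fibroblast and 2.94% of macrophage cells had an Iigp1 UMI, at median depths of 6660.5, 9734, 11237 and 9388.5 UMIs.

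Tgtp2, the other GKS effector, has a near-identical copy, Tgtp1, and reads could be split between them, so its level is uncertain. Capillary cells held 5.64 CPM in cKit-/DDR2+, 3.71 in replicate 1, 18.9 in replicate 2 and 50.5 in cKit+/DDR2+/CD45-. Endocardial cells held 1.16 CPM in replicate 1 (2 UMIs), 15.2 in replicate 2 and 33.2 in cKit+/DDR2+/CD45-. No Tgtp2 UMI was found in 769 fibroblasts of cKit-/DDR2+, and macrophages of cKit+/DDR2+/CD45+ held 0.399 CPM. The Tgtp1 levels in capillary cells, 3.08, 5.19, 7.90 and 20.6 CPM in the same order of libraries, were also highest in cKit+/DDR2+/CD45-.

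The regulatory GTPases stood in the same order in both endothelial types. Igtp in endocardial cells was at 10.4 CPM in replicate 1, 101 in replicate 2 and 151 in cKit+/DDR2+/CD45-. In capillary cells it was at 19 CPM in cKit-/DDR2+, 7.42 in replicate 1, 51.2 in replicate 2 and 82.7 in cKit+/DDR2+/CD45-, and the intervals of the 4 libraries did not overlap. Irgm1, whose loss is known to leave mice susceptible to intracellular pathogens, was at 28.7, 19.3, 43.0 and 68.5 CPM in the capillary cells of these 4 libraries, and at 12.2, 56.6 and 85.4 CPM in the endocardial cells of the last 3. Irgm2 was at 8.37, 11.9, 35.7 and 46.1 CPM in capillary cells and at 9.27, 51.5 and 77.5 CPM in endocardial cells. Irgm1 was also found outside endothelium: fibroblasts of cKit-/DDR2+ held 21.1 CPM, against 28.7 in the capillary cells of that library.

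**Figure D1:**
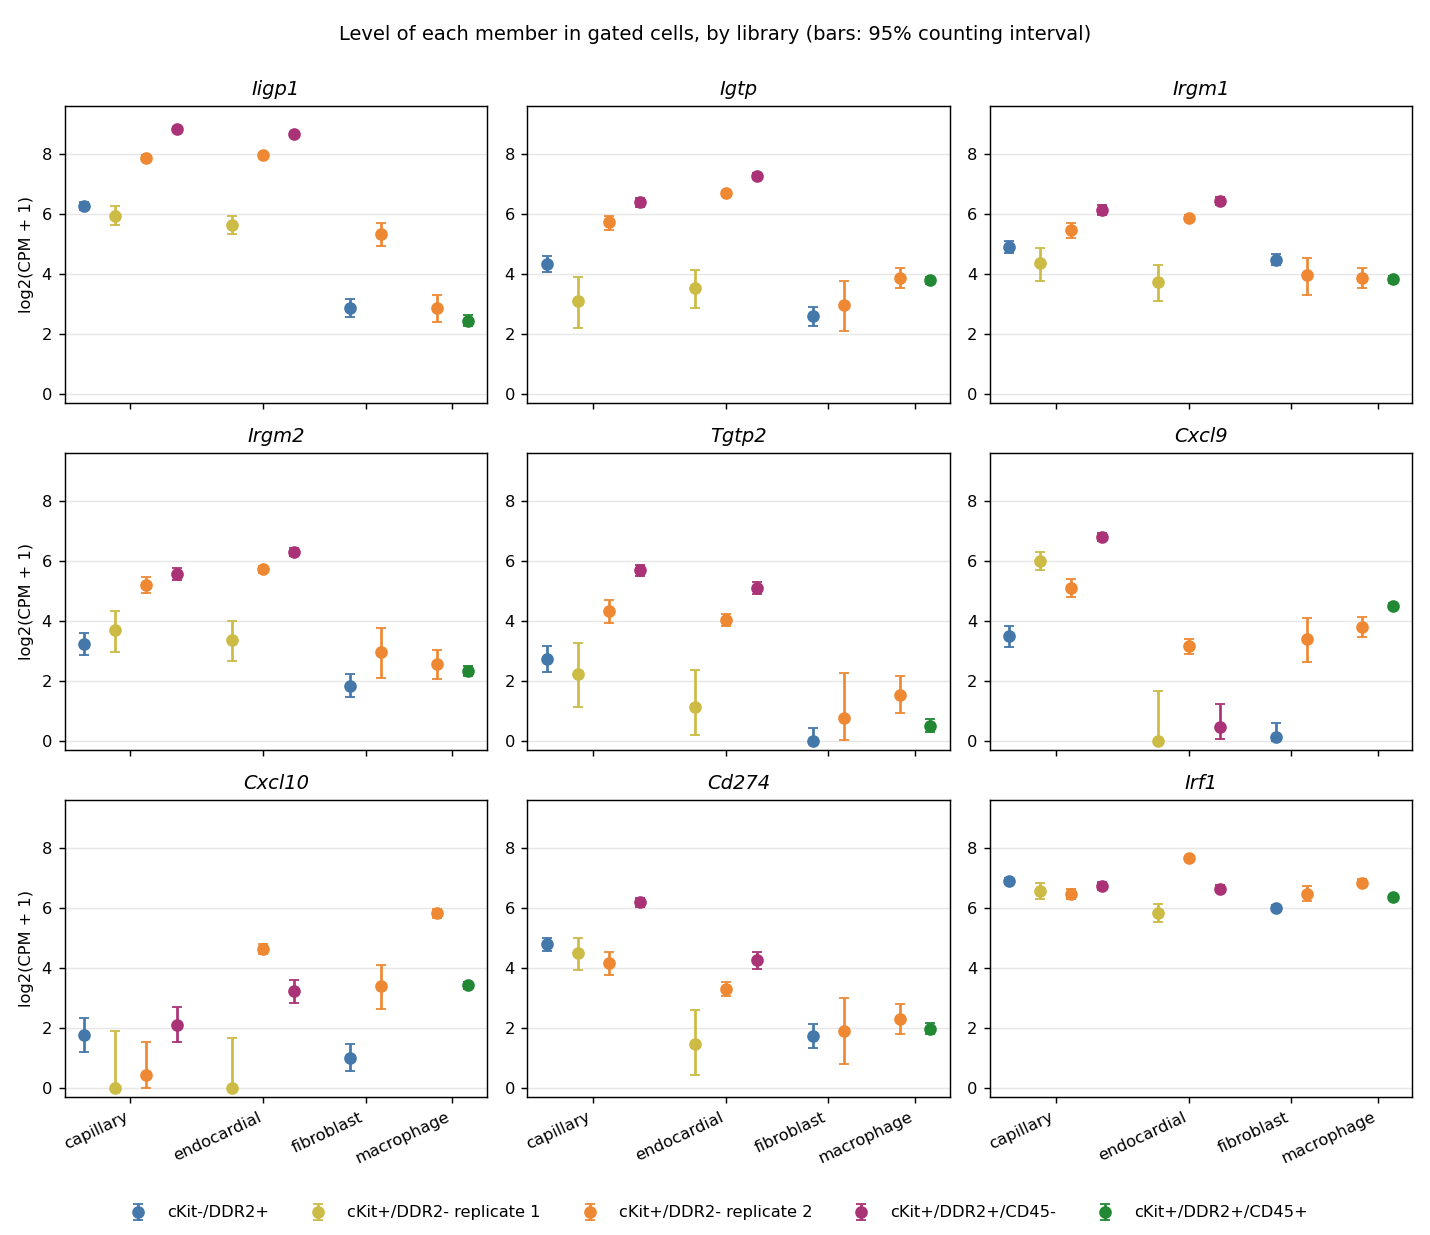
Level of each member as log2(CPM + 1) in gated cells, for groups of at least 50 cells; each point is 1 library, colours mark the libraries, and bars are exact 95% counting intervals. The 5 GTPases rank cKit+/DDR2+/CD45- above cKit+/DDR2- replicate 2 and replicate 1 in both endothelial gates, Cxcl9 is at most 7.89 CPM in these endocardial cells, and Cxcl10 is highest in macrophages of replicate 2.

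Cells with lymphatic genes had lower GTPase levels than the other cells of the Gpihbp1 gate in replicate 2 and in cKit+/DDR2+/CD45-, for each of the 5 genes. Without them Iigp1 was at 75.5 CPM in cKit-/DDR2+, 40.9 in replicate 1, 334 in replicate 2 and 491 in cKit+/DDR2+/CD45-, and Igtp at 19, 7.96, 72.9 and 91.0 CPM. Replicate 1 differed: its 58 cells with lymphatic genes held 96.2 CPM of Iigp1 against 40.9 in the rest. However, 1 cell held 23 of the 81 Iigp1 UMIs of this gate, and the gate level without it was 43.3 CPM. On which side of the split that cell lay was not examined, so the replicate 1 difference is uncertain. The order of the libraries for Iigp1 was the same with and without the cells with lymphatic genes.

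**Figure D2:**
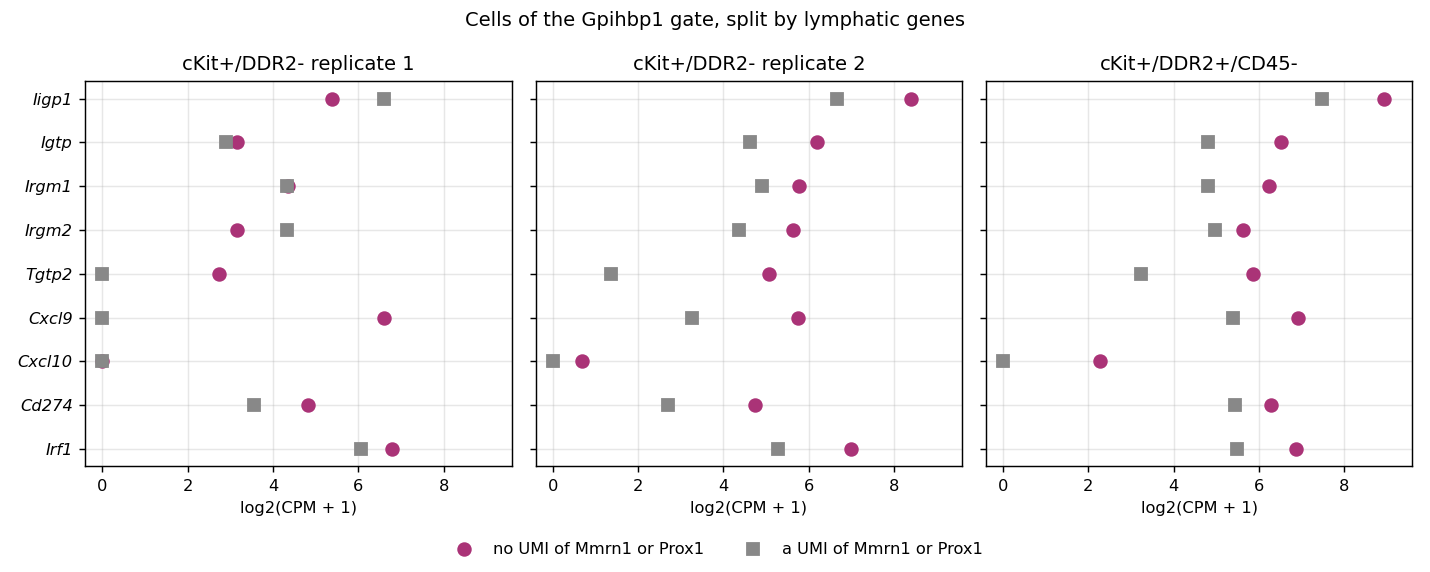
Member levels, log2(CPM + 1), in cells of the Gpihbp1 gate without (circles) and with (squares) a UMI of the lymphatic genes Mmrn1 or Prox1, in 3 libraries. In replicate 2 and cKit+/DDR2+/CD45- the circles lie to the right for the GTPases. In replicate 1 Iigp1 lies higher in the cells with lymphatic genes, but 1 cell of that gate held 23 of its 81 Iigp1 UMIs.

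Cxcl9, the chemokine most dependent on interferon gamma, followed a different pattern. Capillary cells held 10.3 CPM (7.82 to 13.2) in cKit-/DDR2+, 63.1 (50.4 to 78.0) in replicate 1, 33.3 (27.0 to 40.7) in replicate 2 and 110 (100 to 120) in cKit+/DDR2+/CD45-. Endocardial cells of the same libraries held next to none: 0 UMIs in replicate 1 (a floor of 3 UMIs would be 1.74 CPM), 7.89 CPM in replicate 2 and 0.366 CPM, 2 UMIs in 1 cell, in cKit+/DDR2+/CD45-. In cKit-/DDR2+ the 60 UMIs lay in 42 cells, with at most 5 in any cell. In cKit+/DDR2+/CD45- 106 of 611 cells had a UMI, 14 cells had at least 10, and the level without the highest cell was 101 CPM. In replicate 1 a single cell held 43 of 85 UMIs and the level without it was 31.5 CPM; without the shared barcodes it was 21.5 CPM. One cell of replicate 2 held 50 of 97 UMIs, and 16.2 CPM remained without it. Counting intervals are too narrow where so few cells carry a gene.

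In macrophages Cxcl9 lay in few cells. In cKit+/DDR2+/CD45+ they held 21.5 CPM, of which 95% came from 10 of 3482 cells and 317 of 914 UMIs from 1 cell. Macrophages of replicate 2 held 13.0 CPM, with 66 of 69 UMIs in 1 cell. The 11 macrophages of cKit-/DDR2+ are too few to compare; 54 of their 57 Cxcl9 UMIs and 13 of their 14 Cxcl10 UMIs lay in 1 cell each.

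Cxcl10, which shares the receptor Cxcr3, was measured mainly outside capillary cells. Macrophages of replicate 2 held 55.4 CPM (49.3 to 62.1) in 61 of 544 cells, and those of cKit+/DDR2+/CD45+ held 9.67 (8.76 to 10.7) in 128 of 3482. Endocardial cells held 23.9 CPM in replicate 2, of which 189 of 294 UMIs came from 1 cell and 8.55 CPM remained without it, and 8.43 CPM in cKit+/DDR2+/CD45-. Capillary cells held 2.39, 0.344 and 3.32 CPM in cKit-/DDR2+, replicate 2 and cKit+/DDR2+/CD45-. The 2 ligands of Cxcr3 stood in opposite order in cKit+/DDR2+/CD45-, with Cxcl9 at 110 CPM in capillary and 0.366 in endocardial cells and Cxcl10 at 3.32 and 8.43. The Cxcl10 order rests on few cells: 15 UMIs in 10 capillary cells and 46 UMIs in 9 endocardial cells. Of the 46, 16 lay in 1 cell, and 5.51 CPM remained without it.

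Cd274 was highest in capillary cells of cKit+/DDR2+/CD45-, at 72.0 CPM (64.4 to 80.3), against 26.7 in cKit-/DDR2+, 21.5 in replicate 1 and 16.8 in replicate 2, whose intervals overlap in part. Endocardial cells held 1.74, 8.86 and 18.1 CPM in replicate 1, replicate 2 and cKit+/DDR2+/CD45-. Unlike the GTPases, Cd274 was not higher in the capillary cells of replicate 2 than in those of cKit-/DDR2+, with or without the cells with lymphatic genes (25.7 against 26.7 CPM without them).

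Irf1 did not follow the GTPases in capillary cells, where it was at 119, 94.2, 87.6 and 106 CPM in cKit-/DDR2+, replicate 1, replicate 2 and cKit+/DDR2+/CD45-. In endocardial cells it was highest in replicate 2: 56.2 CPM in replicate 1, 200 (192 to 208) in replicate 2 and 99.1 in cKit+/DDR2+/CD45-. Irf1 was also widespread, with 63.2 and 88.1 CPM in fibroblasts of cKit-/DDR2+ and replicate 2, and 114 and 82.0 CPM in macrophages of replicate 2 and cKit+/DDR2+/CD45+. The summed level of 7 genes known to respond to dissociation, Fos and Jun among them, was likewise highest in replicate 2: 7367, 12034 and 5989 CPM in the endocardial cells of replicate 1, replicate 2 and cKit+/DDR2+/CD45-, and 15035 and 10952 CPM in macrophages of replicate 2 and cKit+/DDR2+/CD45+. Its part in the levels of Irf1, and of Cxcl10 in macrophages, was not tested.

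A count of members past a fold was set against all genes. A gene was measured where 1 of the 2 groups reached 50 CPM, and counted where the groups differed at least 2-fold in CPM plus 1. A gene could thus be measured through its higher group alone, as most of the counted members were, so the counts favour genes high in 1 group. The share over all genes follows the same rule. In capillary cells of cKit+/DDR2+/CD45- compared with cKit-/DDR2+, the contrast known when the members were chosen, 6 of 7 measured members were higher (1.76% of 3407 genes were). Their log2 differences were 2.56 for Iigp1, 2.07 for Igtp, 1.23 for Irgm1, 2.96 for Tgtp2, 3.30 for Cxcl9 and 1.40 for Cd274, and Irf1 differed by -0.16. Of the 6, only Iigp1 reached 50 CPM in cKit-/DDR2+, and the others were measured through cKit+/DDR2+/CD45- alone. The median over the 7 was 2.07, against -0.08 over all genes. Irgm2, at 46.1 and 8.37 CPM, was below 50 CPM.

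Against cKit+/DDR2- replicate 1, 5 of 7 measured members were at least 2-fold higher in the capillary cells of cKit+/DDR2+/CD45- (1.88% of all genes), and against replicate 2 it was 3 of 7 (1.33%): Tgtp2 by 1.37, Cxcl9 by 1.69 and Cd274 by 2.03 in log2. In the second of these Iigp1 was 0.95 and Igtp 0.68 higher. Tgtp2, Cxcl9 and Cd274 were at 18.9, 33.3 and 16.8 CPM in replicate 2, so they were measured through cKit+/DDR2+/CD45- alone. Of the 5 counted against replicate 1, only Iigp1 reached 50 CPM there. These contrasts use the same capillary cells in which Cxcl9, Tgtp2 and Iigp1 were known to be high when the members were chosen. Without the cells with lymphatic genes 2 of the 3 members counted against replicate 2 stayed above the fold. Among Rbp7-positive capillary cells only Cd274 did. Compared with cKit-/DDR2+, 1 of 3 measured members was higher in replicate 1 (4.67% of all genes), Cxcl9. Without the shared barcodes it was not counted, at 21.5 against 10.3 CPM, below 50 CPM and just under the fold at 0.998 in log2. In replicate 2, 2 of 3 measured members were higher than in cKit-/DDR2+ (6.09%), Iigp1 by 1.61 and Igtp by 1.39. Within the cKit+/DDR2- sort, replicate 2 exceeded replicate 1 in 2 of 4 measured members (1.59%), again Iigp1 and Igtp. No member was both measured and past the fold against cKit-/DDR2+ in each replicate. Cxcl9 was 2.51 higher in log2 in replicate 1 and 1.61 in replicate 2, where its level of 33.3 CPM was below 50; without the cells with lymphatic genes it was at 96.6 and 52.7 CPM against 10.3.

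In endocardial cells 5 of 5 measured members were at least 2-fold higher in replicate 2 than in replicate 1 (1.47% of all genes), with log2 differences of 2.34 for Iigp1, 3.17 for Igtp, 2.13 for Irgm1, 2.36 for Irgm2 and 1.81 for Irf1. The same 4 GTPases were higher in cKit+/DDR2+/CD45- than in replicate 1, 4 of 5 measured members (1.33%). In both contrasts these 4 were below 50 CPM in replicate 1, so they were measured through the higher library alone. Between cKit+/DDR2+/CD45- and replicate 2 no measured member was 2-fold higher (0.259%) and 1 of 5, Irf1, was lower (0.809%). Tgtp2, below 50 CPM in both, was 1.08 higher in log2. Iigp1, Igtp, Irgm1 and Irgm2 differed there by 0.57 to 0.69. Replicate 1 had 109 endocardial cells with shared barcodes, and the 45 others held 51.8 CPM of Iigp1 and 10.9 CPM of Igtp, close to the values with them.

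Cell types of 1 library share processing. The GTPases differed less than 2-fold between the 2 endothelial gates in cKit+/DDR2+/CD45- and in replicate 2, Igtp in replicate 2 only just so. In replicate 2 this depended on the cells with lymphatic genes. Without them Tgtp2 was past 2-fold, at 32.5 CPM in capillary and 15.2 in endocardial cells, both below 50 CPM. Iigp1, at 250 CPM in endocardial cells, was then below its capillary level of 334 CPM, where it had been above 232 CPM. In cKit+/DDR2+/CD45- 2 of 8 measured members were at least 2-fold lower in endocardial than in capillary cells (12.2% of all genes), Cxcl9 and Cd274, while Igtp was 0.86 and Irgm2 0.74 higher in log2 and Iigp1 differed by -0.15. In replicate 1, 1 of 3 was lower (12.8%), Cxcl9. In replicate 2, 1 of 5 was higher in endocardial cells (7.81%), Irf1 by 1.18, and it fell under the fold without the cells with lymphatic genes. Igtp there was at 101 CPM in endocardial and 51.2 in capillary cells, 0.97 higher in log2, and it passed the fold with gates of at least 1 or 3 UMIs and with CPM taken without Gm42418, Lars2 and mitochondrial genes. It stayed under the fold in the other settings, and without the cells with lymphatic genes its capillary level was 72.9 CPM.

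Fibroblasts gave 1 measured member, Irf1, which did not differ 2-fold between replicate 2 and cKit-/DDR2+ (0.842% of all genes were higher). In macrophages 1 of 2 measured members, Cxcl10, was lower in cKit+/DDR2+/CD45+ than in replicate 2, by -2.40 in log2 (0.787% of all genes were lower), and Irf1 differed by -0.47. The Cxcl10 difference was -2.22 with a gate of at least 1 UMI and with the mean over cells, but the level then lay below 50 CPM, so that it was not counted.

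To ask whether the members were found in the same cells, each cell was reduced at random to 3000 UMIs, leaving out shallower cells. In capillary cells of cKit+/DDR2+/CD45-, 24.4% (20.9 to 28.2, exact binomial interval) of 549 cells held at least 3 of the 9 members, compared with 9.56% of 387 in replicate 2 and 3.95% of 885 in cKit-/DDR2+. At full depth the shares were 40.4%, 19.9% and 9.78%. These shares include cells with lymphatic genes, 168 of 422 gated cells in replicate 2 and 60 of 611 in cKit+/DDR2+/CD45-. Those cells had lower GTPase levels in both libraries, and the shares were not recomputed without them. Endocardial cells with at least 3 members made up 20.4% of 466 in cKit+/DDR2+/CD45-, 11.8% of 1261 in replicate 2 and 0 of 153 in replicate 1, where the upper bound is 2.38%. Among macrophages of cKit+/DDR2+/CD45+ the share was 0.506% of 3359.

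**Figure D3:**
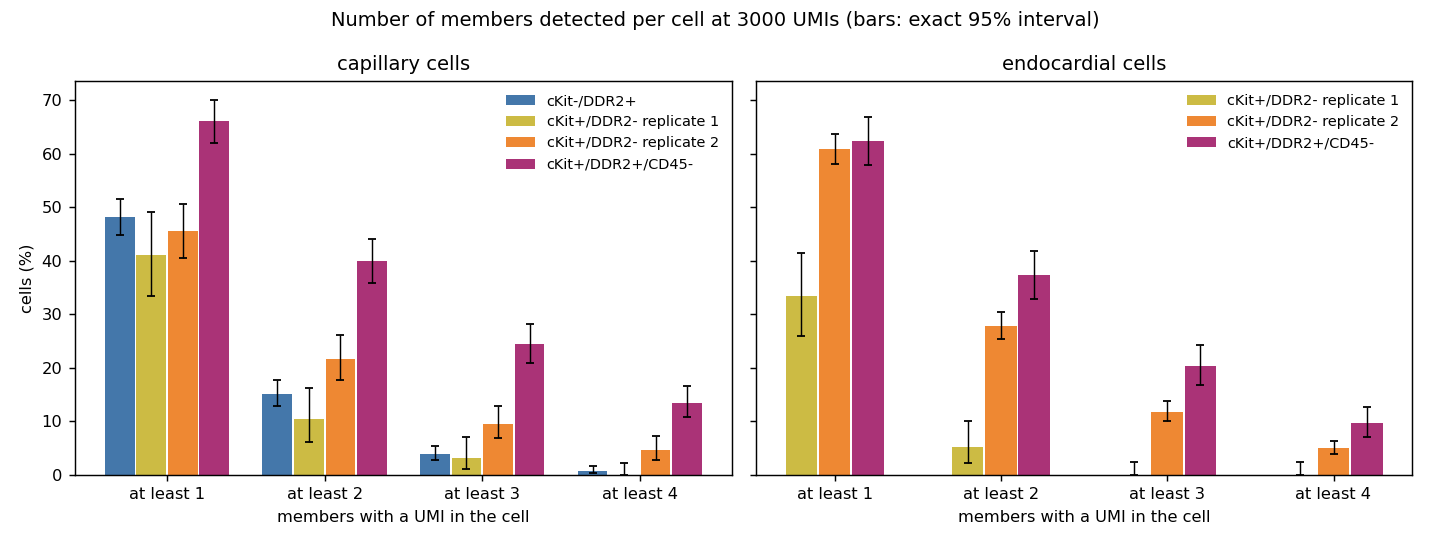
Share of cells, in percent, with a UMI of at least 1, 2, 3 or 4 members after reduction to 3000 UMIs per cell, for capillary (left) and endocardial (right) cells; colours mark the libraries and bars are exact binomial 95% intervals. The share with at least 3 members is 24.4% in capillary cells of cKit+/DDR2+/CD45- and 3.95% in those of cKit-/DDR2+.

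Outside replicate 1, most pairs of members were detected together more often than if each had been spread over the cells independently, whether their levels were high or low. The share of cells with both genes, averaged over all ways of reducing to 3000 UMIs, was divided by the product of the 2 single shares. In capillary cells of cKit+/DDR2+/CD45- the ratio was above 1 for 28 of 28 pairs, with a median of 1.78 (1.69 without the cells with lymphatic genes), and in its endocardial cells for 21 of 21 pairs, with a median of 1.92. In endocardial cells of replicate 2 it was above 1 for 28 of 28 pairs, median 2.22. The 10 pairs of GTPases had a median of 2.12 in the first of these groups and 2.92 in capillary cells of cKit-/DDR2+, where the members are low and 24 of 28 pairs were above 1. Capillary cells of replicate 2 had 27 of 28 pairs above 1, median 2.18, and fibroblasts of cKit-/DDR2+ 4 of 6, median 1.51. In macrophages, where the GTPases are low, it was 28 of 28 pairs in cKit+/DDR2+/CD45+, median 3.01, and 6 of 6 in replicate 2, median 1.27. Replicate 1 had few pairs to compare, 1 of 3 above 1 in capillary cells and 0 of 1 in endocardial cells. Among single pairs in capillary cells of cKit+/DDR2+/CD45-, Irgm2 and Igtp reached 2.69, while Cxcl9 and Irf1 reached 1.13. Cd274 was found in 32.9% of cells with Cxcl9 and in 13.2% of cells without. Cells of 1 library are not replicates, and subtypes within a gate would also raise the ratio; their part was not tested.

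**Figure D4:**
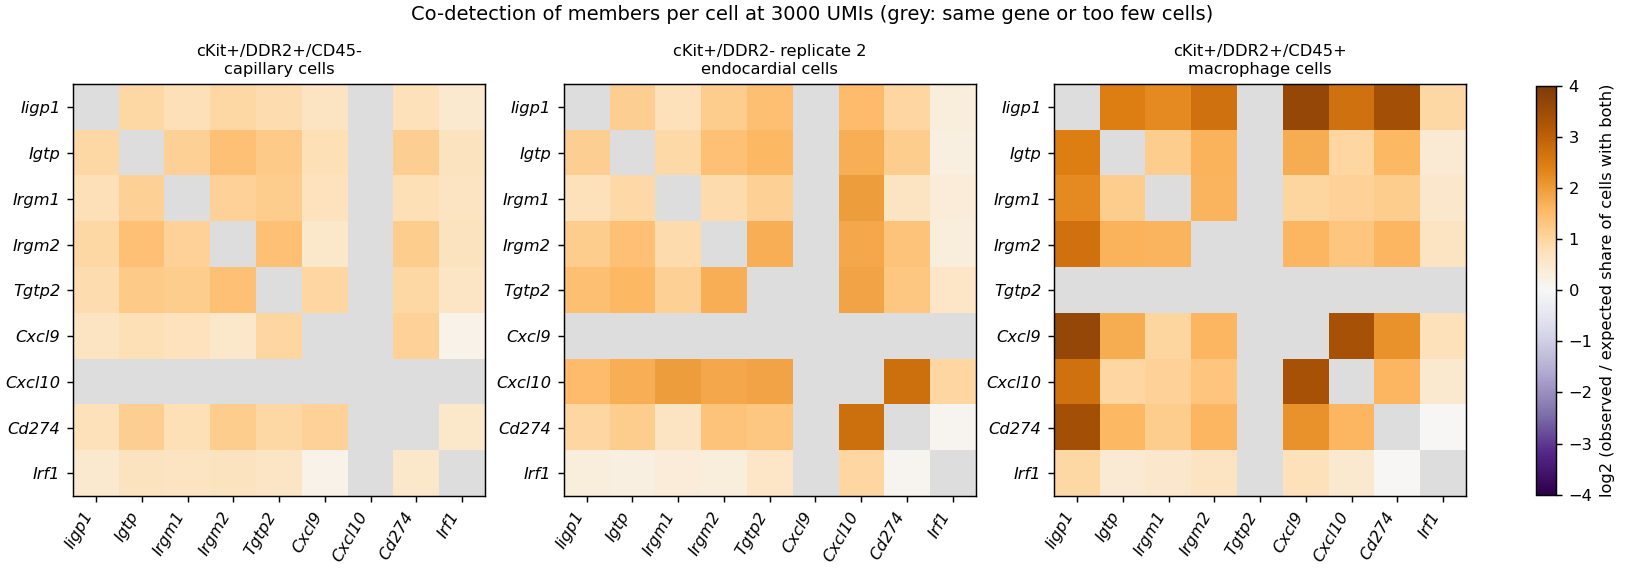
Log2 of the observed over the expected share of cells with both members after reduction to 3000 UMIs, in capillary cells of cKit+/DDR2+/CD45-, endocardial cells of cKit+/DDR2- replicate 2 and macrophages of cKit+/DDR2+/CD45+. Grey marks a gene with itself or a gene found in too few cells, and all pairs shown lie at or above 0; the highest, 12.4-fold, is Iigp1 with Cxcl9 in macrophages, where both are rare.

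Of the signalling genes upstream, 2 are described, picked after their values were seen, and no count over that list is given. The receptor chain Ifngr1 was at 295, 285, 189 and 255 CPM in capillary cells of cKit-/DDR2+, replicate 1, replicate 2 and cKit+/DDR2+/CD45-, and at 145, 93.3 and 119 CPM in endocardial cells of the last 3. Socs3, a feedback inhibitor of cytokine signalling, was at 391, 646 and 187 CPM in the same endocardial cells. The cytokine itself was found in few cells. Ifng had 9 UMIs in 5 cells of cKit-/DDR2+ and 45 UMIs in 3 cells of replicate 2, where 1 cell held 35. Of the 3 cells of replicate 2, 1 lay in the endocardial gate. Each of the cells with Ifng also had at least 2 UMIs of T or natural killer cell markers. Ifng had no UMI in the other 3 libraries, including cKit+/DDR2+/CD45-, where 1 of 1327 cells had at least 2 UMIs of these markers. The receptor Cxcr3 had 219 UMIs in replicate 2, of which 100 lay in cells with at least 2 UMIs of Flt3, a dendritic cell gene. The cKit+/DDR2+/CD45+ library had 179 Cxcr3 UMIs, of which 177 lay in 142 cells of the macrophage gate. The table of cKit+/DDR2+/CD45-, a sort negative for the leukocyte antigen CD45, has no row for Cxcr3.

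Other interferon-induced GTPases, mainly guanylate-binding proteins, were higher in cKit+/DDR2+/CD45- in part. In capillary cells of replicate 2 none of the few measured passed the fold against cKit-/DDR2+ or replicate 1. In capillary cells of cKit+/DDR2+/CD45- compared with cKit-/DDR2+, 4 of the 7 measured genes of a list of 17 were at least 2-fold higher (Gbp3, Gbp4, Gbp5 and Gbp7; 1.76% of all genes were), with a median of 1.03 against -0.08 over all genes. The same 4 of 7 were higher against replicate 2 (1.33% of all genes). Capillary cells of replicate 2 had 0 of 5 higher than cKit-/DDR2+ (6.09% of all genes), with a median of 0.00027, and 0 of 6 higher than replicate 1 (1.59%). In the second of these 5 of 6 lay above 0, with a median of 0.30. With 5 or 6 genes, a count of 0 is close to the share over all genes. In the capillary gate of replicate 2, 168 of 422 cells had a lymphatic gene, and the list was not recomputed without them. In endocardial cells of cKit+/DDR2+/CD45- it was 9 of 9 against replicate 1 (1.33% of all genes), with a median of 1.91 against -0.09, and 2 of 9 against replicate 2 (0.259%). Endocardial cells of replicate 2 had 3 of 5 higher than replicate 1 (1.47%). Of the antigen processing list, 4 of 14 measured genes were higher in the first contrast (1.76% of all genes), B2m, Tap1, H2-Aa and H2-Ab1, with a median of 0.57. Against replicate 2 in capillary cells 1 of 14, Tap1, was higher (1.33% of all genes) and 3 were lower (4.79% of all genes were lower), Cd74, H2-Aa and H2-Ab1. Of the type I interferon list, 1 of 6 was higher in the first contrast (1.76% of all genes), Ifit2, with a median of 0.34. Against replicate 2 in capillary cells 2 of 6 were higher (1.33% of all genes), with a median of 0.69. Against replicate 1 it was 1 of 6 (1.88% of all genes), with a median of 0.07.

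The genes whose levels ran most closely with the members were sought over the 13 groups of at least 50 cells. Among 5486 genes, the highest Pearson correlations with the mean log2 level of the 9 members were 0.89 for Parp14, 0.89 for Gbp3, 0.85 for Rsbn1 and 0.84 for Gbp4, followed by Osbpl8, Gbp5, H2-Q6 and Kat6a. For Iigp1 alone they were Irgm2 at 0.94, then Otud4, Gbp4, March6 and Gbp2. For Cxcl9 alone they were Fam117b at 0.84, then Ptma, Tbpl1, Eepd1 and Snrpd1. Between members, Iigp1 correlated with Igtp at 0.83 and with Irgm1 at 0.85, but with Cxcl9 at 0.12 and with Cxcl10 at -0.06. These groups share libraries and cell types, and the correlations are given as a description.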

How the data were processed

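Per the labels' protocols, cells were sorted from digested hearts and sequenced with Chromium 3′ v3.1 chemistry; per the submitters' processing notes, Cell Ranger (version not given), Seurat 4.0.4 and build mm10 were used. Each deposited table gives each cell's expression on a natural log scale: its UMIs per 10000, plus 1, before the log was taken. UMIs were recovered from these values (100% whole within 0.01), summed over gated cells and given as CPM. A gene not listed for a library was treated as 0. Doublets were not called; cells of more than 1 gate were left out. All 9 members are named, with pathway lists and, by correlation, the 8 genes most like their mean and the 5 most like Iigp1 and Cxcl9; members and lists were chosen with earlier results of these data known. The lymphatic, Rbp7 and shared-barcode alternatives were chosen after seeing the data. The rule for counting was tested on simulated Poisson counts. These hold no spread between cells or between libraries, so that test covers counting error only. Intervals are exact Poisson (levels) and Clopper-Pearson (shares) and cover counting error only. Promoters and gene positions come from RefSeq (GRCm38.p6, the assembly of mm10), matched by symbol for 8 of 9 members; identity is from a global alignment with free ends. Python 3.11.15, numpy 2.4.6, scipy 1.17.1, pandas 2.3.3, biopython and matplotlib were used. One gene of the signalling list is not reported here.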

Additional observations from a re-analysis of the deposited data

Results flagged for a closer look

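The 3 members Cxcl9, Cxcl10 and Irf1 differed in opposite directions between cKit+/DDR2+/CD45- and cKit+/DDR2- replicate 2 in the 2 endothelial gates, with counting intervals away from 0 in both; whether the 2 differences differ was not tested. Cxcl9 was 1.69 higher in capillary cells and differed by -2.70 in endocardial cells on the log2 scale; the endocardial value rests on 2 UMIs against 97, of which 60 lay in 1 cell. Cxcl10 was also 1.69 higher in capillary cells, from 15 UMIs against 1, and differed by -1.40 in endocardial cells, where 1 cell of replicate 2 held 189 of 294 UMIs. Irf1 was 0.28 higher in capillary cells and differed by -1.0 in endocardial cells. Without the cells with lymphatic genes the capillary levels of Irf1 turned round, to 127 CPM in replicate 2 and 116 in cKit+/DDR2+/CD45-.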

How the results depend on the processing

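No difference past the fold changed direction. Of 101 recomputed counts and shares, 77 stayed close to the reported value, as did 556 of 639 values of single members. Where a count took in both cKit+/DDR2- libraries, the least level of 50 CPM was set on the mean of the 2. By that rule Cxcl9 in capillary cells, at 63.1 and 33.3 CPM in replicates 1 and 2, fell just short. The count of measured members higher in capillary cells of both cKit+/DDR2- libraries than in cKit-/DDR2+ was 0 and became 1, Cxcl9, with a gate of at least 3 UMIs, with CPM without Gm42418, Lars2 and mitochondrial genes, with a least level of 20 CPM, without cells with lymphatic genes and in Rbp7-positive cells; leaving out either replicate gave 1 to 2. The endocardial count against both cKit+/DDR2- libraries was 0, 1 (Tgtp2) at 20 CPM, and 1 to 4 when either replicate was left out. Cxcl10 in macrophages dropped out, to a count of 0, with a gate of at least 1 UMI and with the mean over cells. In replicate 2 the count of members higher in endocardial than capillary cells was 1, and 2 with gates of at least 1 or 3 UMIs, without Gm42418, Lars2 and mitochondrial genes and at 20 CPM, but 0 with cells of more than 1 gate kept, with the mean over cells and without lymphatic genes. The count against replicate 2 in capillary cells was 3, and 1 among Rbp7-positive cells. At 1000 UMIs, and without thinning, the share of capillary cells with at least 3 members was 0.380% and 9.78% in cKit-/DDR2+ and 7.28% and 40.4% in cKit+/DDR2+/CD45-. The cause was not tested. Endocardial comparisons with replicate 1 without shared barcodes were not run, as 45 cells remained. Sorts share no replicate numbers to pair, and a paired test of endocardial against capillary cells over the 3 libraries was not run. Levels near a few UMIs are limited by depth.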

Other observations

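In replicate 2, 66 cells of the Mmrn1 gate outside the other gates held 83.7 CPM of Iigp1, above the 75.5 CPM of capillary cells of cKit-/DDR2+ but with counting intervals that overlap, and no UMI of Cxcl9, Cxcl10 or Tgtp2, and 108 cells of the Flt3 gate held 3.90 CPM of Iigp1, 9.75 CPM of Cxcl9, of which 19 of 20 UMIs lay in 1 cell, and 37.1 CPM of Irf1. Pdcd1, the receptor for the product of Cd274, had 15 UMIs in replicate 2, 5 in cKit+/DDR2+/CD45+ and 4 in cKit+/DDR2+/CD45-. Cxcl11, the remaining ligand of Cxcr3, is listed for no library.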
